A study of Gallus gallus with 9 samples.

Results

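Primordial germ cells (PGCs) of the chicken, Gallus gallus, are embryonic precursors of the gametes. They were compared by poly(A) RNA sequencing between libraries labelled LIN28B knockout and libraries labelled wild type with a control vector. All 6 libraries of these labels were used, 3 in each group, out of 9 in the series; the other 3 libraries are labelled LIN28A knockout and enter only where the knockouts are set against each other. The labels do not say how the knockout was made, what the control vector carries, whether the knockout is 1 clone, or whether a group's libraries are separate cultures. The p-values therefore reflect the spread among these libraries alone, which may be technical.

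LIN28A and LIN28B encode RNA-binding proteins. In mammals and worms they are known for binding the precursor of the microRNA let-7 and blocking its maturation, and for binding mRNAs directly. Mature let-7 lowers transcripts that carry its target sites, among them HMGA2, IGF2BP family members and MYC. PGCs express germ cell RNA regulators such as DAZL and DDX4 beside pluripotency factors such as NANOG, and in culture they depend on FGF, insulin and activin signals.

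Each library held 27.7 to 31.7 M counts over 24356 listed genes, and the floor of 3 counts, which covers counting error alone, stood for 0.0945 to 0.108 CPM (counts scaled to a common library total). A total of 15049 genes passed the filter on low counts and were tested. In both groups replicates 1 and 2 were near each other, with replicate 3 at a distance. Among 10096 genes whose average log2 CPM reached 3, the log2 difference between replicates 1 and 2 had a root mean square of 0.140 in control and 0.161 in the libraries labelled LIN28B knockout, against 0.367 and 0.386 between control replicate 3 and control replicates 1 and 2, and 0.400 and 0.442 for the same pairs among the libraries labelled LIN28B knockout. Knockout replicate 3 lay nearer to control replicates 1, 2 and 3 (0.331, 0.356 and 0.378) than to knockout replicates 1 and 2. Chi-square per degree of freedom between replicates 1 and 2 of a group was 6.38 and 7.41, more than counting noise. They were treated as separate replicates, as labelled; repeat libraries of 1 culture can also exceed counting noise, so this does not show that they are separate samples.

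The targeted transcript was not lower. LIN28B (ENSGALG00000026761) stood at 52.0, 45.1 and 61.5 CPM in control replicates 1, 2 and 3 and at 54.6, 59.1 and 50.8 CPM in the libraries labelled LIN28B knockout. The groups overlapped, with a log2 fold change without pairing of 0.05 ± 0.13 (SE, n = 3 per group; edgeR's adjusted p: 0.872 unblocked, 0.790 blocked). Blocked means that the fit has the replicate number as a term. Its direction reverses when control replicate 2 (−0.051) or knockout replicate 2 (−0.004) is left out. LIN28A (ENSGALG00000036022) was at 159.6, 143 and 242 CPM in control and 172, 178 and 244 CPM in the libraries labelled LIN28B knockout, which is 0.12 ± 0.22 as a log2 fold change (edgeR's adjusted p: 0.814 unblocked, 0.278 blocked) and reverses without control replicate 2 (−0.024) or knockout replicate 3 (−0.059). A count over the whole gene does not show a small edit that ends the protein, so these values do not check the label, and the group is called by its label throughout.

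One gene passed the test without pairing: ENSGALG00000041459, for which the deposited tables give no symbol. It stood at 93.3, 91.9 and 84.8 CPM in control and 24.6, 22.5 and 24.8 CPM in the libraries labelled LIN28B knockout. The 2 groups lay far apart and each varied little, and the log2 fold change was −1.91 ± 0.10 (SE, n = 3 per group; edgeR's adjusted p: 0.000773 unblocked, 0.000999 blocked). It fell in every setting tried, by 1.87 to 1.97 on the log2 scale, and DESeq2 called it as well (adjusted p = 2.10e-54).

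Counted over all genes, edgeR without pairing called this 1 gene lower and 0 higher (0.00664% of the genes tested), against 2389 at an unadjusted p under 0.05 (15.9%; 8.82% higher and 7.06% lower). The replicate 3 libraries of the groups deviated together from their group means (r = 0.557). Replicates 1 and 2 did so as much when crossed (0.422 and 0.426) as when same-numbered (0.397 and 0.436), so the data set only replicate 3 apart. With the replicate number as a block edgeR called 1151 genes (7.65% of those tested): 550 higher (3.65%) and 601 lower (3.99%). DESeq2 without the block called 650 (4.23% of the genes it tested), 330 higher (2.15%) and 320 lower (2.08%), and the authors' deposited table has 682 at an adjusted p under 0.05 (342 higher and 340 lower), of which 548 were also called with the block, all with the same sign. Of the 1151 genes, 765 had CPM ranges that did not overlap between the groups, against 22.9% of all genes tested (12.2% higher and 10.7% lower), and all 1151 had the same sign in the 3 same-numbered pairs. The 1151 genes were called from these same libraries and pairs, so neither count is separate support for the calls. The median absolute log2 fold change of the called genes was 0.575, and 209 reached at least 1 (121 higher and 88 lower).

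In what follows, "rose" and "fell" are used for genes called with the block, log2 fold changes of single genes are from that fit, and adjusted p-values are given as blocked and unblocked. List medians are from the fit without the block. A gene called with the block can overlap in CPM between the groups, also where this is not stated. The lists were chosen with earlier results of these data known, so a ranking of them by calls is no separate support. No member of any list described below was called without the block. Over all genes tested the block called 3.65% higher and 3.99% lower, the shares to set beside each list's count. These calls rest on the block and, through it, on replicates 1 and 2 as separate samples: leaving out the pair of replicate 1, 2 or 3 gave 258, 158 and 4981 calls, and adding the 3 LIN28A knockout libraries to the fit with the block gave 24. Counts of list members under these settings are to be set beside these totals. Genes were named from the block and the lists after their values were seen.

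**Figure D1:**
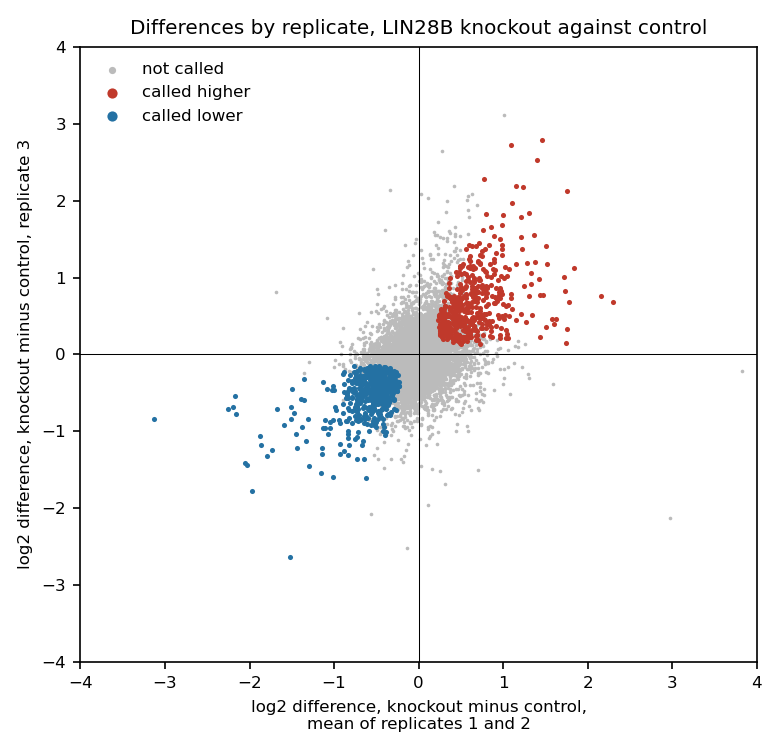
Log2 difference of the libraries labelled LIN28B knockout minus control of the same number, as the mean of replicates 1 and 2 (horizontal axis) and in replicate 3 (vertical axis). Each point is 1 of the 10096 genes whose average log2 CPM reached 3. Genes called with the block, in red (higher) and blue (lower), lie in the quadrants where both have the same sign. The calls were made from these same pairs.

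The differences of the 3 pairs were unequally alike. Across these genes the difference in pair 1 correlated with that in pair 2 at r = 0.816, and pair 3 correlated with pairs 1 and 2 at 0.458 and 0.420. Genes are not independent replicates. The pairs share no library, but replicates 1 and 2 lay near each other in both groups. The r between pairs 1 and 2 therefore need not reflect agreement of separate samples.

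Of the lists described here, that of the ATF4 programme had the most members called lower. ATF4 is a transcription factor made when eIF2 alpha is phosphorylated, for instance under shortage of amino acids, and it switches on genes for amino acid synthesis, uptake and stress repair. Of 39 tested members of the ATF4 stress response list, 26 fell, 1 rose and 12 were not called; DESeq2 without the block called 17 lower and 0 higher. The median log2 fold change was −0.56, against 0.00 over all genes tested, and 34 of 39 lay below 0. The list median was −0.46, −0.61 and −0.54 in pairs 1, 2 and 3. Without the pair of replicate 1 or 2 the number that fell was 14 and 11. With all 9 libraries it was 4, and with all but LIN28A knockout replicate 3 it was 26.

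Among the regulators, 7 of 11 fell and 1 rose. ATF4 itself (ENSGALG00000012135) was at 512, 509 and 538 CPM in control and 306, 295 and 459 CPM in the libraries labelled LIN28B knockout. All 3 knockout values lay below the lowest control value, and replicate 3 moved least (log2 fold change −0.59 ± 0.11; edgeR's adjusted p: 0.0286 blocked, 0.194 unblocked). JDP2, a bZIP repressor of the AP-1 family, fell from 21.6, 19.5 and 32.1 CPM to 6.41, 5.43 and 12.8 CPM, a log2 fold change of −1.63 ± 0.15 (edgeR's adjusted p: 0.00528 blocked, 0.136 unblocked). The stress-induced factor ATF3 fell by 1.31 ± 0.16 on the log2 scale and its bZIP relative CEBPB by 1.28 ± 0.16 (edgeR's adjusted p: 0.00874 for both blocked, 0.118 and 0.102 unblocked). Of the kinases that phosphorylate eIF2 alpha, EIF2AK3, which senses unfolded protein in the endoplasmic reticulum, fell by 0.58 ± 0.11 (edgeR's adjusted p: 0.0303 blocked, 0.128 unblocked). EIF2AK2, which responds to double-stranded RNA, was the member that rose, by 0.70 ± 0.15 (edgeR's adjusted p: 0.0417 blocked, 0.441 unblocked), at 8.31, 7.84 and 3.60 CPM in control and 12.9, 13.9 and 5.50 CPM in knockout.

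Enzymes of amino acid synthesis were the most uniform role, with 10 of 11 lower and a median log2 fold change of −0.79. ASNS (ENSGALG00000009748), which makes asparagine, was at 278, 290.0 and 364 CPM in control and 143, 121 and 201 CPM in the libraries labelled LIN28B knockout. The groups did not overlap, and each knockout library held less than the control library of its number (log2 fold change −1.02 ± 0.09; edgeR's adjusted p: 0.00528 blocked, 0.114 unblocked). The serine pathway was lower at each of its 3 steps. PHGDH, the first enzyme, fell by 0.56 ± 0.07 (edgeR's adjusted p: 0.00822 blocked, 0.0900 unblocked), PSAT1 by 1.34 ± 0.22 (edgeR's adjusted p: 0.0179 blocked, 0.277 unblocked) and PSPH by 1.01 ± 0.21 (edgeR's adjusted p: 0.0359 blocked, 0.223 unblocked). PSAT1 varied most between replicates: it was at 89.1, 100.1 and 152 CPM in control and 36.1, 24.3 and 92.4 CPM in knockout, so the third knockout library lay within the control range. For proline, ALDH18A1 fell by 1.24 ± 0.18 and PYCR1 by 0.81 ± 0.09 (edgeR's adjusted p: 0.0120 and 0.00756 blocked, 0.203 and 0.136 unblocked). GPT2, the mitochondrial alanine transaminase, fell by 1.01 ± 0.10 (edgeR's adjusted p: 0.00572 blocked, 0.116 unblocked).

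Of 7 amino acid transporters, 4 fell. SLC7A11 (ENSGALG00000009758), which imports cystine, was scarce, at 5.15, 3.57 and 6.90 CPM in control, and fell to 0.902, 0.497 and 1.08 CPM in the libraries labelled LIN28B knockout. All 3 knockout libraries were far below the lowest control value (log2 fold change −2.66 ± 0.26; edgeR's adjusted p: 0.00664 blocked, 0.0675 unblocked). SLC7A5, the large neutral amino acid carrier, fell by 0.92 ± 0.08 (edgeR's adjusted p: 0.00528 blocked, 0.221 unblocked), and SLC1A4 and SLC7A1 fell by 0.43 and 0.34. Among stress effectors 5 of 10 fell. CHAC1, which breaks down glutathione, was at 58.1, 67.7 and 62.6 CPM in control and 6.67, 7.57 and 34.8 CPM in the libraries labelled LIN28B knockout. The third knockout library was far above the other two yet below every control library (log2 fold change −2.33 ± 0.44; edgeR's adjusted p: 0.0285 blocked, 0.194 unblocked). SESN2, a leucine-sensing inhibitor of mTORC1, showed a like pattern, from 45.6, 47.7 and 40.9 CPM to 10.9, 9.70 and 28.1 CPM (log2 fold change −1.62 ± 0.32; edgeR's adjusted p: 0.0306 blocked, 0.166 unblocked). No tested gene carried the symbol DDIT3 or TRIB3.

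**Figure D2:**
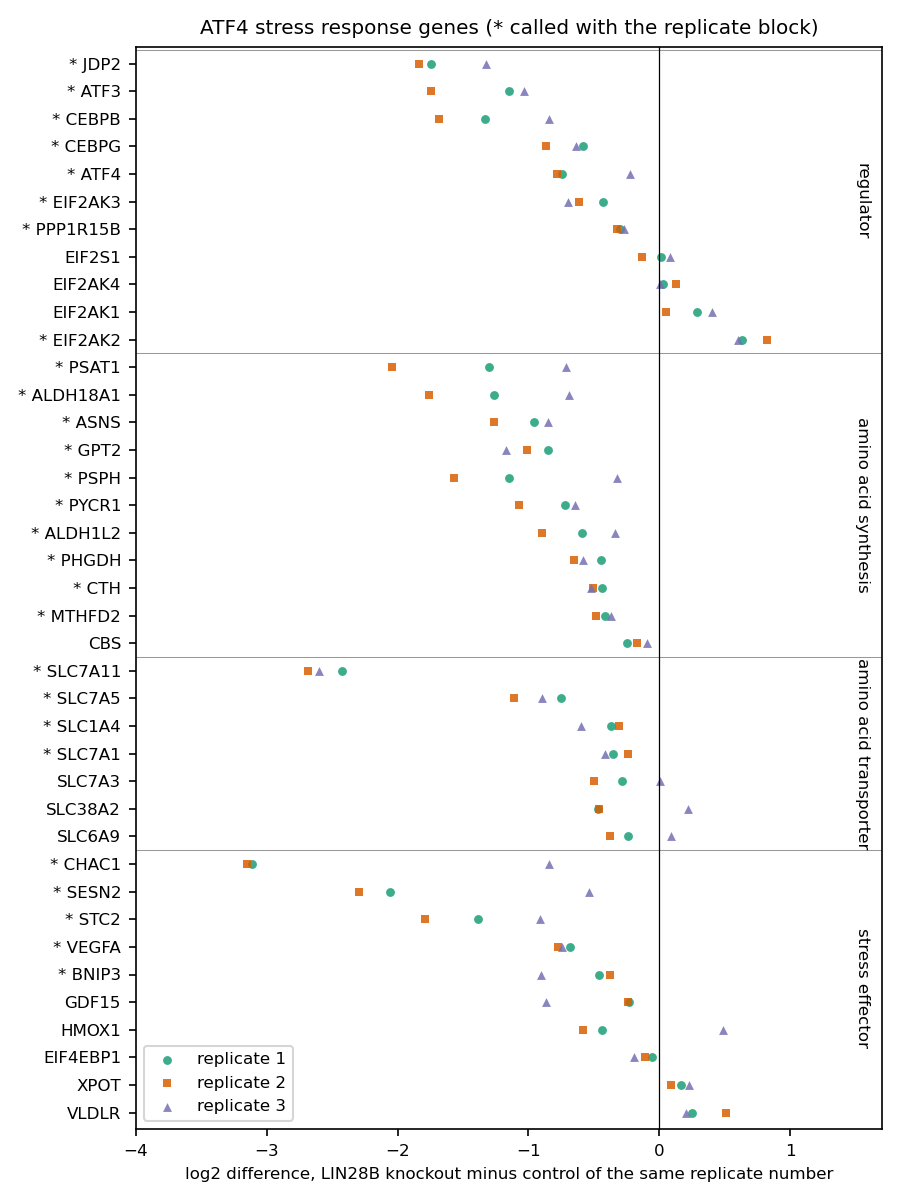
Log2 difference of the libraries labelled LIN28B knockout minus control of the same replicate number for the 39 tested members of the ATF4 stress response list, by role; symbols mark replicates 1, 2 and 3, and an asterisk marks a gene called with the block. Of the amino acid synthesis enzymes 10 of 11 carry an asterisk, and CHAC1 and SESN2 show the widest gap between replicate 3 and the others.

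Aminoacyl-tRNA synthetases, which charge tRNAs with amino acids, had 28 of 34 tested members below 0, and their median was −0.13; 9 fell and 0 rose. GARS, for glycine, was at 351, 352 and 481 CPM in control and 219.9, 188 and 324 CPM in knockout, so all knockout libraries lay below control (log2 fold change −0.72 ± 0.08; edgeR's adjusted p: 0.00751 blocked, 0.204 unblocked). SARS1, for serine, fell by 0.50 ± 0.06 (edgeR's adjusted p: 0.00941 blocked, 0.102 unblocked). Without the pair of replicate 1 or 2, 1 member was called lower. Among other lists of protein synthesis and turnover, ribosomal proteins had 1 higher and 1 lower of 70, the proteasome 0 of 30, heat shock chaperones 0 of 20, and genes of endoplasmic reticulum folding 3 lower of 28 (10.7%, against 3.99% of all genes tested). Folate and nucleotide synthesis had 1 higher and 3 lower of 28 (3.57% and 10.7%, against 3.65% and 3.99% of all genes tested). Among the lower was the mitochondrial folate enzyme MTHFD2, which fell by 0.42 ± 0.07 (edgeR's adjusted p: 0.0164 blocked, 0.153 unblocked).

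Of 25 tested glycolysis genes 6 fell and 0 rose, with a median of −0.19. PFKFB3 (ENSGALG00000040369), which makes the activator of phosphofructokinase, was at 47.7, 52.1 and 46.2 CPM in control and 23.7, 22.0 and 23.7 CPM in knockout. Both groups were tight and apart, and the log2 fold change was −1.07 ± 0.10 (edgeR's adjusted p: 0.00572 blocked, 0.0515 unblocked). The glucose transporter SLC2A1 fell by 0.50 ± 0.10, the first enzyme HK2 by 0.51 ± 0.08 and the lactate exporter SLC16A3 by 0.59 ± 0.13 (edgeR's adjusted p: 0.0305, 0.0143 and 0.0429 blocked, 0.165, 0.220 and 0.208 unblocked). LDHA, lactate dehydrogenase, was not called: it was at 1357, 1609 and 1518 CPM in control and 1601, 1107 and 643 CPM in knockout, with 1 knockout library inside the control range and the others below it. Without the pair of replicate 1 or 2, 3 and 1 glycolysis members were called lower.

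Hypoxia response genes overlapped in part with these lists. Of 23 tested, 7 fell and 1 rose, with a median of −0.17. NDRG1 was at 82.9, 84.9 and 87.2 CPM in control and 32.7, 27.9 and 51.4 CPM in knockout, with no overlap (log2 fold change −1.23 ± 0.15; edgeR's adjusted p: 0.00874 blocked, 0.0921 unblocked). The clock-linked repressor BHLHE40 fell by 1.16 ± 0.12 (edgeR's adjusted p: 0.00737 blocked, 0.0646 unblocked) and the mitophagy receptor BNIP3L by 0.76 ± 0.08 (edgeR's adjusted p: 0.00753 blocked, 0.279 unblocked). Of the oxygen-regulated factors themselves, EPAS1 rose by 0.77 ± 0.08 (edgeR's adjusted p: 0.00737 blocked, 0.188 unblocked), while HIF1A had a log2 fold change of 0.14 ± 0.06 and was not called (edgeR's adjusted p: 0.208 blocked). Respiratory chain genes had 0 higher and 2 lower of 66 (3.03%, near the 3.99% of all genes tested), and the tricarboxylic acid cycle 0 of 20.

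Cholesterol synthesis and uptake genes had 29 of 35 tested members below 0 and a median of −0.17, and 5 fell and 1 rose. FDFT1, which makes squalene, was at 2036, 2127 and 1712 CPM in control and 1356, 1165 and 1475 CPM in knockout, the highest knockout value lying below the lowest control value (log2 fold change −0.56 ± 0.12; edgeR's adjusted p: 0.0356 blocked, 0.130 unblocked). STARD4, a sterol carrier, fell by 0.74 ± 0.11 and mevalonate kinase, MVK, by 0.49 ± 0.08 (edgeR's adjusted p: 0.0120 and 0.0161 blocked, 0.0895 and 0.120 unblocked). SCAP, the sterol sensor that escorts SREBP, rose by 0.31 ± 0.07 (edgeR's adjusted p: 0.0435 blocked, 0.194 unblocked). The list median was −0.17, −0.39 and −0.08 in pairs 1, 2 and 3, and without the pair of replicate 1 or 2 the calls were 1 and 0 lower.

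Cell division transcripts differed chiefly in replicates 1 and 2. All 41 tested members of G2 and mitosis lay below 0, with a median of −0.34, and 15 fell, but the list median was −0.49 and −0.58 in pairs 1 and 2 and −0.08 in pair 3. MKI67 (ENSGALG00000025996), a proliferation marker, was at 242, 238 and 419 CPM in control and 160.5, 139 and 325 CPM in knockout. Replicate 3 was the highest library of each group, so the groups overlapped (log2 fold change −0.58 ± 0.09; edgeR's adjusted p: 0.0140 blocked, 0.501 unblocked). The anaphase activator CDC20 fell by 0.62 ± 0.10 and topoisomerase TOP2A by 0.52 ± 0.08 (edgeR's adjusted p: 0.0161 and 0.0183 blocked, 0.204 and 0.351 unblocked). Without the pair of replicate 1 or of replicate 2, 0 members were called, and without that of replicate 3 all 41 were lower. Calls over all genes moved the same way, as given above for these settings. Of the 1151 genes called with the block, 242, 155 and 1149 were still called without pair 1, 2 or 3. DESeq2 without the block called 1 member of G2 and mitosis. Of 45 S phase genes 4 fell (8.89%, against 3.99% of all genes tested). Among them was the primase subunit PRIM1, which was at 45.2, 45.2 and 48.0 CPM in control and 30.0, 28.4 and 26.7 CPM in knockout (log2 fold change −0.70 ± 0.10; edgeR's adjusted p: 0.0103 blocked, 0.0675 unblocked). Genes of p53 and apoptosis had 0 higher and 4 lower of 42 (9.52%, against the same 3.99%).

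Guidance ligands and receptors, the cell surface and secreted cues that steer axons and migrating cells, had the most members called higher of the lists described here: 14 of 41 rose and 0 fell, 34 lay above 0, and the median was 0.34. The list median was 0.27, 0.44 and 0.43 in pairs 1, 2 and 3. EPHA1, an ephrin receptor, was at 24.6, 22.4 and 10.7 CPM in control and 48.5, 56.4 and 24.2 CPM in knockout; replicate 3 was the lowest of each group, and its knockout value lay just inside the control range (log2 fold change 1.16 ± 0.11; edgeR's adjusted p: 0.00572 blocked, 0.216 unblocked). Another ephrin receptor, EPHB3, was at 72.8, 68.1 and 55.3 CPM in control and 109, 106 and 121 CPM in knockout, with no overlap (log2 fold change 0.78 ± 0.11; edgeR's adjusted p: 0.0127 blocked, 0.0884 unblocked). The transmembrane semaphorin SEMA6A rose by 0.79 ± 0.10 and the netrin receptor UNC5C by 0.60 ± 0.07 (edgeR's adjusted p: 0.00906 and 0.00822 blocked, 0.0895 and 0.118 unblocked). UNC5A, UNC5B and UNC5D rose too, by 0.53, 0.57 and 1.00. Without the pair of replicate 1 or 2, 7 and 3 guidance genes were called higher, with the block and all 9 libraries 0, and DESeq2 without the block called 9.

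The chemokine CXCL12, ligand of the receptor that guides PGC migration, rose from 17.4, 16.2 and 24.8 CPM to 37.6, 33.2 and 53.8 CPM, with no overlap (log2 fold change 1.09 ± 0.09; edgeR's adjusted p: 0.00528 blocked, 0.127 unblocked). Its receptor CXCR4 was at 39.8, 40.3 and 24.2 CPM in control and 39.5, 36.0 and 20.7 CPM in knockout and was not called (edgeR's adjusted p: 0.430 blocked, 0.864 unblocked). Among adhesion genes the epithelial cadherin CDH1 rose by 0.97 ± 0.10 and the epithelial adhesion molecule EPCAM by 0.42 ± 0.07 (edgeR's adjusted p: 0.00664 and 0.0164 blocked, 0.216 and 0.163 unblocked). N-cadherin, CDH2, fell by 0.55 ± 0.08 (edgeR's adjusted p: 0.0121 blocked, 0.530 unblocked); it was at 264, 255 and 468 CPM in control and 169.7, 161 and 367 CPM in knockout, again with replicate 3 highest in each group.

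Extracellular matrix genes went both ways, with 7 of 46 higher, 6 lower and a median of 0.09. The glycoprotein TNC (ENSGALG00000039990) rose from 13.9, 14.2 and 6.94 CPM to 44.2, 51.3 and 30.5 CPM, and every knockout library was above every control library (log2 fold change 1.88 ± 0.12; edgeR's adjusted p: 0.00387 blocked, 0.0895 unblocked). TGFBI rose by 0.77 ± 0.07, and the basement membrane collagens COL4A1 and COL4A2 rose by 0.63 ± 0.08 and 0.71 ± 0.08 (edgeR's adjusted p: 0.00528, 0.00941 and 0.00779 blocked, 0.0588, 0.166 and 0.233 unblocked). SERPINH1 (ENSGALG00000011214), the chaperone that folds procollagen in the endoplasmic reticulum, fell from 167, 162 and 216 CPM to 78.7, 74.2 and 111 CPM, with no overlap (log2 fold change −1.06 ± 0.07; edgeR's adjusted p: 0.00387 blocked, 0.0908 unblocked). The fibrillar collagen COL5A2 fell by 0.93 ± 0.09 (edgeR's adjusted p: 0.00648 blocked, 0.137 unblocked). Among collagen VI chains COL6A2 fell by 2.53 ± 0.35, COL6A3 by 0.76 ± 0.15 and COL6A1 by 0.72 ± 0.17 (edgeR's adjusted p: 0.0106, 0.0315 and 0.0448 blocked, 0.114, 0.136 and 0.165 unblocked). The direction of the matrix median reverses without control replicate 3 (−0.013) or knockout replicate 2 (−0.018).

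**Figure D3:**
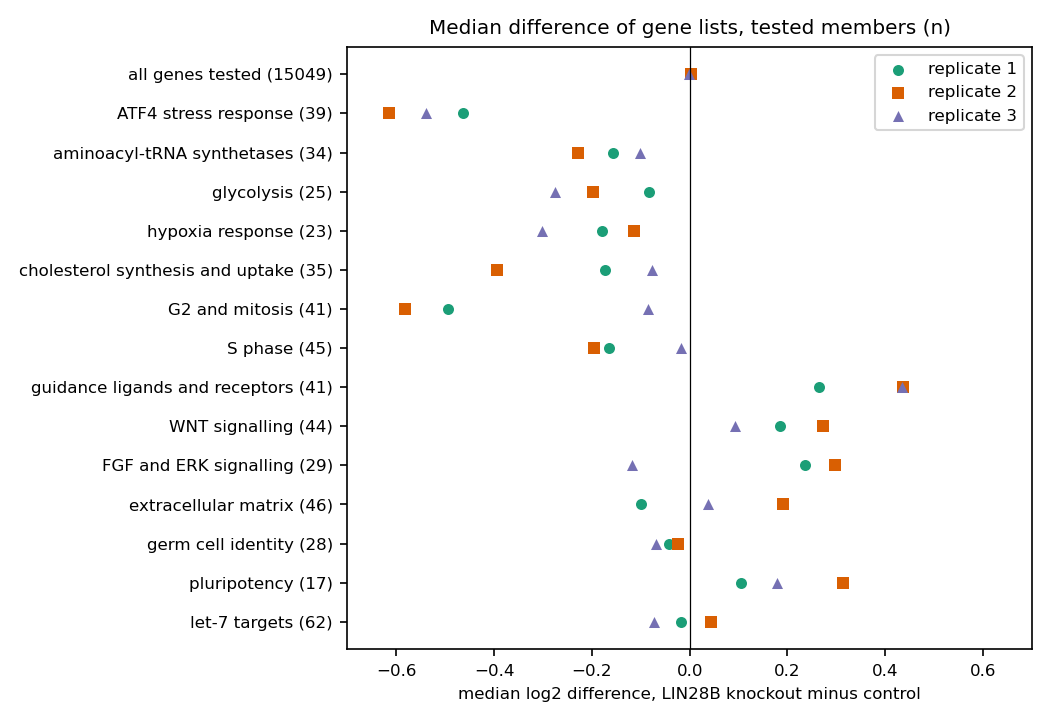
Median log2 difference of the libraries labelled LIN28B knockout minus control of the same replicate number, over the tested members of each list (number in brackets), with all genes tested in the top row. The 3 medians lie together for ATF4 stress response (−0.46, −0.61 and −0.54) and apart for G2 and mitosis (−0.49, −0.58 and −0.08).

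In the FGF and ERK list 5 of 29 rose and 0 fell. FGF8, a ligand, was scarce, at 1.43, 1.51 and 0.817 CPM in control and 4.74, 4.19 and 7.46 CPM in knockout, without overlap (log2 fold change 2.09 ± 0.37; edgeR's adjusted p: 0.0223 blocked, 0.0895 unblocked). Of the ERK phosphatases, which are induced by ERK and shut it off, DUSP5 rose by 2.00 ± 0.33 and DUSP4 by 0.51 ± 0.09 (edgeR's adjusted p: 0.0186 and 0.0193 blocked, 0.0908 and 0.225 unblocked). Scaled over all 9 libraries, DUSP5 was scarce too, at 1.18, 0.647 and 0.709 CPM in control and 3.41, 2.86 and 3.74 CPM in knockout. DUSP6 stood at 84.3, 82.4 and 120.2 CPM in control and 161, 159 and 126 CPM in knockout and was not called (edgeR's adjusted p: 0.0591 blocked). The list median was 0.24 and 0.30 in pairs 1 and 2 and −0.12 in pair 3.

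In the WNT list 5 of 44 rose (11.4%, against 3.65% of all genes tested), 1 fell (2.27%, against 3.99%) and the median was 0.21. RSPO3, a secreted WNT agonist, was at 55.0, 55.4 and 54.6 CPM in control and 82.9, 72.2 and 88.5 CPM in knockout, with no overlap (log2 fold change 0.56 ± 0.09; edgeR's adjusted p: 0.0159 blocked, 0.102 unblocked). The receptor FZD8 rose by 0.49 ± 0.10 (edgeR's adjusted p: 0.0307 blocked, 0.153 unblocked). AXIN2, a common WNT target, was at 19.7, 14.4 and 20.0 CPM in control and 15.2, 16.3 and 22.6 CPM in knockout, and the groups overlapped (edgeR's adjusted p: 0.986 blocked). In the activin, nodal and BMP list 3 of 36 rose and 3 fell (8.33% each). The BMP target ID2 fell from 32.6, 32.5 and 35.1 CPM to 12.9, 16.9 and 14.2 CPM (log2 fold change −1.20 ± 0.12; edgeR's adjusted p: 0.00664 blocked, 0.0529 unblocked), and ID3 fell by 0.93 ± 0.13 (edgeR's adjusted p: 0.0106 blocked, 0.366 unblocked). Of insulin, IGF and mTOR genes 2 of 37 rose and 2 fell (5.41% each, against 3.65% higher and 3.99% lower of all genes tested). Retinoic acid enzymes went opposite ways: ALDH1A2, which makes retinoic acid, rose by 0.93 ± 0.08, and CYP26B1, which breaks it down, fell by 1.73 ± 0.33 (edgeR's adjusted p: 0.00528 and 0.0293 blocked, 0.0799 and 0.126 unblocked).

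The germ cell identity list had 5 of 28 higher and 1 lower, with a median of −0.11. On raw library totals its summed level was 6460 to 6582 CPM in control and 6303 to 6714 CPM in knockout. Without the pair of replicate 1 or 2, 1 and 0 of them were called higher. DAZL was at 1795, 1892 and 2091 CPM in control and 1601, 1535 and 1810.3 CPM in knockout, a log2 fold change of −0.23 ± 0.06 that was not called (edgeR's adjusted p: 0.0734 blocked, 0.308 unblocked). The helicase DDX4 was at 614, 591 and 633 CPM in control and 658, 609.8 and 829 CPM in knockout (0.18 ± 0.08; edgeR's adjusted p: 0.213 blocked), and neither the piRNA-binding PIWIL1 (0.25 ± 0.06, edgeR's adjusted p: 0.0537 blocked) nor the receptor KIT (0.33 ± 0.12, edgeR's adjusted p: 0.130 blocked) was called. Among transcription factors of germ cell specification, TFAP2C rose from 52.6, 58.1 and 29.3 CPM to 106, 113 and 41.6 CPM; replicate 3 was lowest in each group, and its knockout value lay within the control range (log2 fold change 0.84 ± 0.11; edgeR's adjusted p: 0.00974 blocked, 0.312 unblocked). PRDM14 rose by 0.43 ± 0.07 (edgeR's adjusted p: 0.0159 blocked, 0.109 unblocked), while PRDM1 at 0.46 ± 0.12 was not called (edgeR's adjusted p: 0.0606 blocked). Of 21 piRNA pathway genes TDRD6, a Tudor scaffold, was the 1 called: it fell by 0.52 ± 0.07 (edgeR's adjusted p: 0.00906 blocked, 0.102 unblocked). Of 18 meiosis genes 3 fell (16.7%, against 3.99% of all genes tested) and 0 rose.

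Pluripotency genes had 4 of 17 higher and 1 lower, and a median of 0.20; without the pair of replicate 1 or 2, or with all 9 libraries, 0 were called higher. NANOG was at 668, 669 and 548 CPM in control and 931, 959 and 638 CPM in knockout, where replicate 3 lay within the control range (log2 fold change 0.41 ± 0.08; edgeR's adjusted p: 0.0286 blocked, 0.269 unblocked). SALL4 rose by 0.36 ± 0.07 (edgeR's adjusted p: 0.0307 blocked, 0.216 unblocked). SOX2 was scarce and fell, from 4.74, 3.69 and 12.6 CPM to 0.322, 0.817 and 2.43 CPM, with no overlap (log2 fold change −2.69 ± 0.34; edgeR's adjusted p: 0.00906 blocked, 0.185 unblocked). NANOG, SALL4 and SOX2 are also members of the germ cell identity list, so the calls of these lists overlap. No tested gene carried the symbol POU5F3. Of lineage genes, mesoderm and endoderm had 2 of 23 higher (8.70%) and 1 lower (4.35%). Ectoderm had 1 of 20 higher (5%) and 2 lower (10%), against 3.65% higher and 3.99% lower of all genes tested. TBX6 (ENSGALG00000006374), a mesodermal T-box factor, rose from 181, 173 and 138 CPM to 339.6, 331 and 250.4 CPM, with no overlap (log2 fold change 0.90 ± 0.06; edgeR's adjusted p: 0.00387 blocked, 0.0895 unblocked). OTX1, a forebrain factor, fell by 1.60 ± 0.18 (edgeR's adjusted p: 0.00779 blocked, 0.126 unblocked).

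The let-7 target list, compiled mostly from mammals, had 4 of 62 higher and 4 lower and a median of −0.06, which reverses to 0.039 with replicates 1 and 2 only. Over all genes tested 3.65% were called higher and 3.99% lower. HMGA2 was at 4.46, 4.21 and 7.35 CPM in control and 2.22, 2.17 and 7.33 CPM in knockout, lower in pairs 1 and 2 and level in pair 3 (edgeR's adjusted p: 0.180 blocked, 0.696 unblocked). IGF2BP3 had a log2 fold change of −0.24 ± 0.06 (edgeR's adjusted p: 0.0595 blocked), IGF2BP1 of −0.02 ± 0.16 without the block (edgeR's adjusted p: 0.961, and 0.976 blocked) and MYC of −0.08 ± 0.30 (edgeR's adjusted p: 0.900 blocked). The directions of IGF2BP1 and MYC reverse under some of the settings tried. Of the members called, the insulin-like growth factor gene IGF2 rose by 0.83 ± 0.16 and its receptor IGF1R fell by 0.52 ± 0.10 (edgeR's adjusted p: 0.0313 and 0.0310 blocked, 0.239 and 0.337 unblocked). Of 17 LIN28 and microRNA processing genes 0 were called with the block, and 1 at an unadjusted p under 0.05 without it. MicroRNAs themselves were not measured.

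Further large differences were outside these lists. SPINT1, an inhibitor of membrane-bound proteases, was at 25.6, 29.5 and 22.0 CPM in control and 82.3, 75.8 and 49.9 CPM in knockout. The protease-activated receptor F2RL1 was at 17.8, 19.9 and 12.2 CPM in control and 63.3, 72.2 and 26.7 CPM in knockout. Both groups were apart for each gene, with log2 fold changes of 1.41 ± 0.11 and 1.62 ± 0.16 (edgeR's adjusted p: 0.00528 and 0.00621 blocked, 0.0628 and 0.128 unblocked). TSC22D4 fell by 1.58 ± 0.14 and DLC1 by 1.64 ± 0.20 (edgeR's adjusted p: 0.00528 and 0.00850 blocked, 0.0529 and 0.0588 unblocked). Of 11 DNA methylation genes 1 rose and 3 fell (9.09% and 27.3%, against 3.65% and 3.99% of all genes tested). The de novo methyltransferase DNMT3A was at 0.46 ± 0.06 and the maintenance factor UHRF1 at −0.49 ± 0.11 (edgeR's adjusted p: 0.00972 and 0.0401 blocked, 0.166 and 0.580 unblocked).

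**Figure D4:**
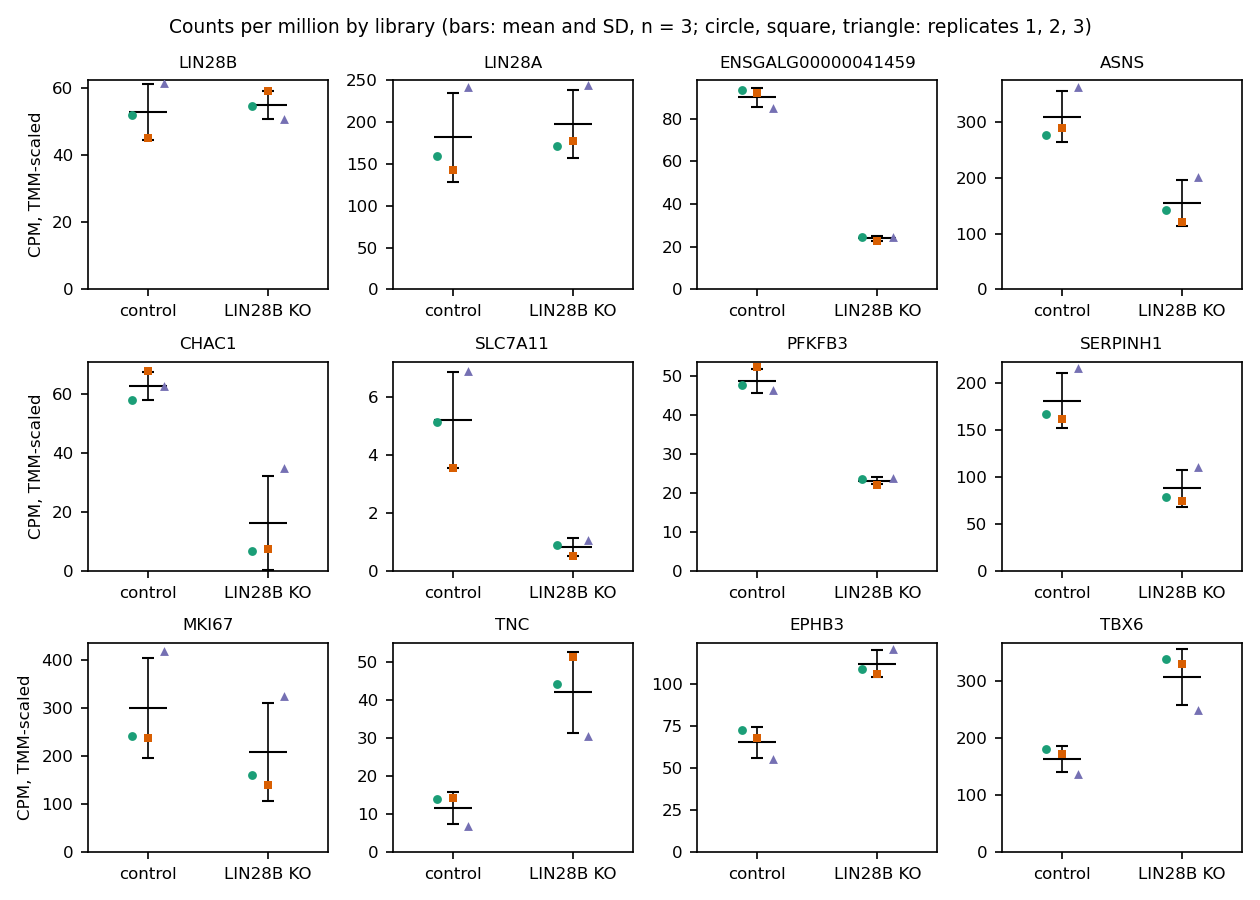
TMM-scaled CPM of 12 genes in each control library and each library labelled LIN28B knockout; the horizontal bar and whiskers are the mean and SD (n = 3), and colours and symbols mark replicates 1, 2 and 3. LIN28B overlaps between the groups (45.1 to 61.5 and 50.8 to 59.1 CPM), while ENSGALG00000041459, ASNS, PFKFB3 and TNC do not.

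Markers of other cell types were summed in each library. The sums, and the values of CDH5, VWF, CLDN5, TFRC and VIM, are CPM on raw library totals. The other CPM in this paragraph are TMM-scaled. In these bulk samples fewer cells of a type and less RNA per cell cannot be told apart. Endothelial markers summed to 25.9 to 62.1 CPM in control and 68.3 to 102 CPM in knockout over 13 genes, none at 0 in a whole group. Of 10 tested 8 lay above 0, with a median of 0.55, and 2 rose: FLT4 by 1.25 ± 0.18 and FLT1 by 2.20 ± 0.46 (edgeR's adjusted p: 0.0120 and 0.0356 blocked, 0.215 and 0.177 unblocked). PECAM1 and FLT4 held most of the endothelial sum. PECAM1 was at 28.3, 26.0 and 14.9 CPM in control and 29.8, 38.4 and 33.2 CPM in knockout, without overlap, with a log2 fold change of 0.59 ± 0.19, and was not called with or without the block. Of the scarcer markers, CDH5, VWF and CLDN5 were at most 1.17, 0.617 and 0.289 CPM in any of the 6 libraries. Fibroblast markers summed to 1432 to 2055 CPM in control and 1251 to 2144 CPM in knockout (1 of 17 tested higher and 3 lower, the 3 being the collagen VI genes), with COL1A1 at 109, 101 and 49.3 CPM and 89.2, 94.6 and 54.7 CPM. Leukocyte markers summed to 19.4 to 28.3 and 25.5 to 32.5 CPM (1 of 8 tested higher), erythroid markers to 163 to 191 and 169 to 229.9 CPM (0 of 3), and gonadal somatic markers to 21.3 to 26.5 and 19.4 to 21.9 CPM. TFRC made up nearly all of the erythroid sum, at 184, 160 and 190 CPM in control and 187, 165 and 229 CPM in knockout. VIM held a large share of the fibroblast sum, at 778, 769 and 1044 CPM in control and 775, 719 and 1088 CPM in knockout. Of the 10 gonadal markers tested, 9 lay above 0, with a median of 0.50, and 0 rose. SOX9 was the 1 called: it fell from 13.7, 12.5 and 14.4 CPM to 2.93, 2.66 and 8.91 CPM, and it held a large share of the sum. Their part in the guidance and matrix differences was not tested.

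Set against the libraries labelled LIN28A knockout in a fit of all 9 libraries, 80 of 15475 genes differed (0.517%), with LIN28B knockout higher at 22 and lower at 58. The number moved with LIN28A knockout replicate 3, a library that stands apart: without it edgeR called 474. It was 9 in the 6 knockout libraries alone and 890 with the replicate number as a block. Of the 80 genes, called without the block, 41 had also been called against control with the block, 34 lower and 7 higher. Over all genes tested against control the block called 7.65% (3.65% higher and 3.99% lower). Both comparisons use the same libraries labelled LIN28B knockout, so these counts are not independent. ENSGALG00000041459 was lower than in LIN28A knockout by a log2 difference of −2.21 ± 0.21, with 94.8, 84.8 and 153 CPM in the LIN28A knockout libraries, near or above control (edgeR adjusted p = 0.00706). PFKFB3 was at 51.6, 51.7 and 56.1 CPM in LIN28A knockout, a difference of −1.20 ± 0.11, and SERPINH1 at 293, 288 and 380.1 CPM, a difference of −1.87 ± 0.19 (edgeR adjusted p = 0.00706 for both). COL5A2 and DLC1 were lower by −1.81 ± 0.21 and −1.54 ± 0.20, and F2RL1 higher by 2.29 ± 0.35 (edgeR adjusted p = 0.0138, 0.0193 and 0.0319). Every LIN28A knockout library lay above every control library for SERPINH1 and COL5A2, and below every control library for F2RL1. The differences for these genes therefore do not measure a change in LIN28B knockout alone. For ATF4 and ASNS the difference between the knockouts was −0.65 ± 0.16 and −1.38 ± 0.34 and did not pass (edgeR adjusted p = 0.0958 for both), though with the block both did (0.0244 and 0.0176). The replicate numbers pair the knockouts less clearly, so these blocked values carry less weight. The same-numbered r was 0.132, 0.0840 and 0.122, and that of replicate 2 was under the 0.1 asked of the comparison with control. ASNS was at 269, 275 and 666 CPM in LIN28A knockout, the third library being far above the others. TNC did not differ detectably between the knockouts (0.18 ± 0.36; edgeR adjusted p = 0.830). Nor did CXCL12 (0.10 ± 0.39), ID2 (0.14 ± 0.29), CYP26B1 (−0.02 ± 0.32) or PRDM14 (−0.0008 ± 0.09) (edgeR adjusted p = 0.916, 0.822, 0.984 and 0.997). A call against control is therefore not by itself particular to LIN28B knockout, and a difference not detected does not show equal levels.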

How the data were processed

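Poly(A) RNA was extracted with a Nucleospin kit and libraries were made with a NEBNext directional kit, per the labels' protocols. Each library has a table of gene counts that the authors deposited without normalization. The submitters' processing notes list edgeR 3.38.4, DESeq2 1.36.0, featureCounts 2.0.3 and HISAT2 2.1.0 and the builds GRCg6a and galGal6, without saying what each was for. Neither the strand setting nor the annotation release was stated, and overlapping genes or near-identical copies may share reads. The log2 fold changes and the p-values and adjusted p-values in the authors' deposited tables carry DESeq2's column names, per the file headers. Those tables also hold, per the file headers, a mean normalized signal per gene and a test score, which were not used. Gene symbols were taken from those tables, and their fold changes and adjusted p-values were used for a count of calls. DESeq2 here matched their log2 fold changes to a median absolute difference of 2.27e-05. For the LIN28B knockout samples, the description field points to the LIN28A result table.

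Counts of the 6 libraries were fitted with edgeR 4.0.16 in R 4.3.3 (TMM, filterByExpr, quasi-likelihood F test, group only), called at a Benjamini-Hochberg adjusted p under 0.05; DESeq2 1.42.0 was an alternative. CPM are TMM-scaled. Each SE is the absolute log2 fold change divided by the square root of the F statistic of its fit. It rests on a spread that edgeR estimates partly across genes, not on a gene's own libraries alone. Symbols were known for 12122 of 15049 tested genes. No coordinates or sequences are printed. Replicate numbers have no stated meaning. The correlation of deviations from the group mean, over 10096 genes, was 0.397, 0.436 and 0.557 for same-numbered libraries, all above 0.1, so a fit blocked on replicate number is given for the comparison with control, beside the fit without it. The check does not separate replicates 1 and 2 (0.422 and 0.426 when crossed), so only replicate 3 is set apart by the data. The common biological coefficient of variation was 0.198 without the block and 0.131 with it. The fits were tested on simulated data with a separate shift for each replicate number. That simulation does not show that the block suits these data.

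Members, lists and the rule for named genes were chosen with earlier results of these data known. Genes were named by a rule: both LIN28 genes, 17 fixed genes, the 12 largest changes in each direction, and at most 4 called genes per list and direction; with 1 gene called, further genes came from the fit with the block, after their values were seen. Some single-gene results are not reported here.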

Additional observations from a re-analysis of the deposited data

How the results depend on the processing

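The number of genes called without pairing was 1 as reported and 1151 with the replicate block, 2 with relative log expression size factors, 650 with DESeq2, 57 with no filter on low counts, 2 with all 9 libraries, 166 with all but LIN28A knockout replicate 3, 4666 with replicates 1 and 2 only, and 1 to 1032 when 1 library was left out (1032 without LIN28B knockout replicate 3, 2 without control replicate 3). With replicate 3 set apart as a batch, chosen after seeing the data, it was 2550. The 1151 calls of the replicate block became 24 with all 9 libraries, 2579 with all but LIN28A knockout replicate 3 and 2550 with replicate 3 alone set apart, and 258, 158 and 4981 without pair 1, 2 or 3; other scalings, filters and DESeq2 with the block gave 1204 to 1710. Of the 1151 genes, 242, 155 and 1149 were still called without pair 1, 2 or 3, all with the same sign. The pairs kept are among those that made the calls, so the shared sign is no separate support.

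The 80 calls between the knockouts became 9 in the 6 knockout libraries, 474 without LIN28A knockout replicate 3 and 890 with the replicate block, although the numbers pair the knockouts less clearly (same-numbered r of 0.132, 0.0840 and 0.122). With replicates 1 and 2 only, LIN28B was called higher at 0.23 (edgeR adjusted p = 0.0443) and LIN28A at 0.21 (0.0104). With 1 library left out, LIN28B ran from −0.051 (without control replicate 2) to 0.16, also turning without knockout replicate 2 (−0.0042), and LIN28A from −0.059 (without knockout replicate 3) to 0.37, also turning without control replicate 2 (−0.024).

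List medians of ATF4 stress response, G2 and mitosis, S phase and guidance genes stayed within the replicate spread in the 17 alternatives. That does not make the calls stable. The G2 and mitosis median differed widely between pairs (−0.49, −0.58 and −0.08). The 15 members called lower with the block became 0 with all 9 libraries and 30 with DESeq2 and the block. With replicates 1 and 2 only, glycolysis moved to −0.13, hypoxia response to −0.078, WNT signalling to 0.26 and FGF and ERK signalling to 0.31, and let-7 targets reversed to 0.039. With 1 library left out, synthetases ran from −0.19 to −0.12, cholesterol genes from −0.29 to −0.15, FGF and ERK signalling from 0.048 to 0.26, pluripotency from 0.10 to 0.28, germ cell identity from −0.16 to −0.033 and extracellular matrix from −0.018 to 0.16, the last reversing without control replicate 3 (−0.013) or knockout replicate 2 (−0.018). Of the 164 named genes other than LIN28A and LIN28B, 3 reversed. With 1 library left out CXCR4 ran from −0.34 to 0.11 (without knockout replicate 3), MYC from −0.24 to 0.025 (without knockout replicate 2) and IGF2BP1 from −0.14 to 0.15 (without control replicate 3); IGF2BP1 also reversed with upper quartile scaling (0.0039) and with replicates 1 and 2 only (0.091). The cause was not tested.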
